A study of Mus musculus with 4 samples.

Results

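The 9 genes described here encode receptors that megakaryocytes and platelets carry on their surface: Itga2b, Itgb3, Gp1ba, Gp1bb, Gp5, Gp6, Gp9, Clec1b and Treml1. They were taken by gene name from the annotation of the arrays, which held 14 probes for them among 39429 probes for endogenous transcripts. All 9 genes were among the 17353 genes whose signal was high enough to be tested, through 13 of the 14 probes. RNA came from spleen cells of Ackr4GFP/wt mice, which carry a green fluorescent protein reporter at Ackr4 on 1 allele, so the ACKR4-positive and the ACKR4-negative cells share this genotype. After enzymatic digestion, red cell lysis and bead depletion of CD45+ cells, living CD45- CD31+ single cells were sorted as ACKR4-GFP+ or ACKR4-GFP- in 2 independent sorts, with cells of 2 to 3 mice pooled in each. This gave 2 ACKR4-positive and 2 ACKR4-negative arrays, 1 of each group per sort, and each array is therefore a pool of mice and not 1 animal. The labels used here give no age or sex.

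Platelets bind to a damaged vessel wall through a small set of receptors. The complex of glycoproteins Ib, IX and V (Gp1ba, Gp1bb, Gp9, Gp5) catches von Willebrand factor, glycoprotein VI (Gp6) binds collagen and fibrin, the lectin encoded by Clec1b binds podoplanin, and the integrin formed by Itga2b and Itgb3 binds fibrinogen once it is activated. Treml1 encodes a protein of the platelet granules that reaches the surface on activation. The mouse spleen makes megakaryocytes in adult life, and both platelets and megakaryocytes carry CD31, the surface protein used in this sort.

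Levels are log2 signals relative to the 75th percentile of the array, so that a level of 0 equals that percentile, and differences are ACKR4-positive minus ACKR4-negative. Ackr4 itself had levels of -0.21 and 2.55 on the ACKR4-positive arrays of sorts 1 and 2 and of -7.53 and -7.50 on the ACKR4-negative arrays. It was not well above background on either ACKR4-negative array, which placed it at least 107-fold higher in ACKR4-positive cells. Between 54.9% and 58.3% of all probes were well above background on each array, no probe was saturated, and all arrays lay on 1 slide. Array profiles correlated at 0.961 within the ACKR4-positive group, 0.972 within the ACKR4-negative group and 0.902 to 0.934 between them. ACKR4-negative replicate 1 stood apart by its spiked-in control RNA, with a median signal of 837 against 2749 to 3489 on the other 3 arrays. The sample labels name CD31+ cells and not endothelial cells. All 15 pan-endothelial marker genes were well above background on all 4 arrays. Pecam1, which encodes CD31, had levels of 3.36 and 2.58 in ACKR4-positive cells and 3.41 and 2.84 in ACKR4-negative cells. The leukocyte marker Ptprc, which encodes CD45, was well above background on 1 array, ACKR4-positive replicate 2. Of 15 listed leukocyte markers, 11 had a signal high enough to be tested, and Ptprc, Cd3d, S100a8 and Ncr1 did not. Among the 11 tested markers, 9 and 11 were well above background on the ACKR4-positive arrays. On the ACKR4-negative arrays 10 and 11 were. The tested markers were selected by their signal, so these counts are largely set by that selection. They do not measure how much leukocyte RNA was left.

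Every member gave its lower levels in the ACKR4-positive cells. In limma's fit over all tested genes, with Benjamini-Hochberg adjustment and a threshold of 0.05, 7 of the 9 members were called lower, against 3.71% of all tested genes (1.91% were called higher, 5.62% in either direction). Both ACKR4-positive arrays lay below both ACKR4-negative arrays for 9 of 9 members and for 21.6% of tested genes. On neither ACKR4-positive array were Itga2b, Gp5 and Gp6 well above background, 3 of 9 members, and the same held for 2.32% of tested genes. Such genes were tested only because they were well above background on both ACKR4-negative arrays. That share therefore depends on the filter and does not measure how rare dim genes are. With the sort number as a block in the fit, 9 of 9 members were called lower, against 8.56% of tested genes. The median log2 fold change of the members was -7.37 (-6.45 with genes under the background at their bound), and that of all tested genes was 0.04. In these bulk samples, fewer cells of a type and less RNA per cell cannot be told apart.

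**Figure D1:**
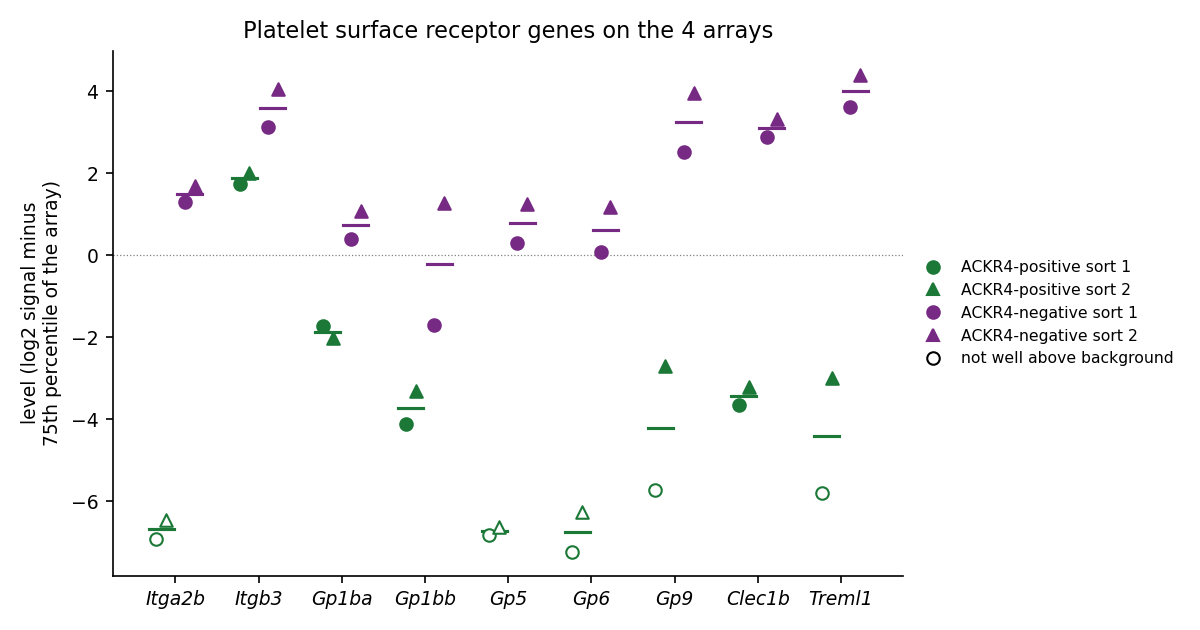
Levels of the 9 receptor genes on each array (log2 signal minus the 75th percentile of the array), with the ACKR4-positive arrays in green to the left of the ACKR4-negative arrays in purple, circles for sort 1, triangles for sort 2 and bars for the mean of 2 arrays. Open symbols mark probes not well above background, and for every gene both green symbols lie below both purple ones.

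The 2 chains of the fibrinogen receptor differed in how far apart the groups lay. Itga2b, which encodes the αIIb chain, the one of the pair that marks the megakaryocyte lineage, had levels of -6.92 and -6.45 in ACKR4-positive cells and 1.30 and 1.69 in ACKR4-negative cells. Both ACKR4-positive values were not well above background, while the ACKR4-negative arrays differed from each other by 0.38. The fit gave a log2 fold change of -8.18 ± 0.33 (SE, n = 2 arrays per group, adjusted p = 0.00637). Against the dimmest signals well above background on the ACKR4-positive arrays, the RNA was at least 143-fold lower. For such bounds, each array of the dim group was given the dimmest signal that still counted as well above background there. A level of its own that was higher than this signal was kept.

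The probe that measured Itga2b is shown because its match in the genome (mm9, chr11:102319453-102319661) covers 209 bases for 60 bases of sequence, so the match is split in the genome, as across a splice junction.
Itga2b probe: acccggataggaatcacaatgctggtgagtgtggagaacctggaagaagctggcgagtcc
The 250 bases before the Itga2b start site (RefSeq, GRCm38.p6, chr11:102469884-102470133, minus strand) are shown with the ETS letters AGGAAG in capitals, searched on both strands, which start 125 and 43 bases before the start site.
Itga2b upstream: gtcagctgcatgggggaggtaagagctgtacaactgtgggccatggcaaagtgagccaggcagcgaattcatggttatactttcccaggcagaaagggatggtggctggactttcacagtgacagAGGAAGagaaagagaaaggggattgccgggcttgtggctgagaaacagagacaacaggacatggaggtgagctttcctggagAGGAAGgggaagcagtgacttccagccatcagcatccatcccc
The ETS letters were in the windows of 4 of the 8 members with an entry in the promoter table, and in 29.5% of all 32851 windows of that length.

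Itgb3 encodes the β3 chain, which pairs with αIIb on platelets and with αv (Itgav) on many other cells. Its levels were 1.75 and 2.02 in ACKR4-positive cells and 3.13 and 4.06 in ACKR4-negative cells. All 4 arrays were well above background, and the groups did not overlap. The difference of -1.71 ± 0.41 (SE, n = 2 per group) did not pass the test (adjusted p = 0.120), and it did with the sort as a block (adjusted p = 0.0125). A dimmer Itgb3 probe gave -6.00 and -5.04 in ACKR4-positive cells against -3.32 and -3.09 in ACKR4-negative cells. It was well above background on the ACKR4-negative arrays only. Its difference was -2.32, or 4.98-fold (adjusted p = 0.0584 in a fit of single probes, 0.00497 with the block). Both of its ACKR4-positive levels lay above the dimmest signal used for bounds, so its bound equals this difference. Itgav had levels of -0.33 and -0.76 in ACKR4-positive cells and of -1.70 and -0.99 in ACKR4-negative cells, a difference of 0.80 ± 0.38 that did not pass the test (adjusted p = 0.436).

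Among the chains of the von Willebrand factor receptor, the members did not separate alike. Gp1ba encodes the chain that holds the binding site for von Willebrand factor. It had levels of -1.72 and -2.02 in ACKR4-positive cells and 0.39 and 1.08 in ACKR4-negative cells, all well above background and with no overlap. Its fold change of -2.61 ± 0.36 on the log2 scale was called (adjusted p = 0.0300), and the call was lost when any 1 of the 4 arrays was left out, with adjusted p between 0.0652 and 0.118.

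Gp5 encodes the chain that thrombin cleaves from the platelet surface. Levels of -6.81 and -6.63 in ACKR4-positive cells were not well above background, against 0.31 and 1.25 in ACKR4-negative cells. Gp5 was at least 87.5-fold lower in ACKR4-positive cells (log2 fold change -7.50 ± 0.41, adjusted p = 0.00685).

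Upstream windows of Gp1ba and Gp5 are shown because these were the 2 members whose windows held both GATA and ETS letters; the GATA factor Gata1 is a regulator of megakaryocyte genes. The GATA letters were AGATAA or its variants AGATAG and also TGATAA as well as TGATAG, and the ETS letters were AGGAAG. Capitals mark them on either strand, and none of these matches overlap. The windows are chr11:70638872-70639121 on the plus strand for Gp1ba and chr16:30310782-30311031 on the minus strand for Gp5 (RefSeq, GRCm38.p6).
Gp1ba upstream: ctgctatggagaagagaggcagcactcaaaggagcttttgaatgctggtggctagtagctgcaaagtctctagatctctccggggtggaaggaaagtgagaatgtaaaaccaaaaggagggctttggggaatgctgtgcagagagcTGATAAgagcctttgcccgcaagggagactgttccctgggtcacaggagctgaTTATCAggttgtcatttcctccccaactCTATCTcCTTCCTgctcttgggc
Gp5 upstream: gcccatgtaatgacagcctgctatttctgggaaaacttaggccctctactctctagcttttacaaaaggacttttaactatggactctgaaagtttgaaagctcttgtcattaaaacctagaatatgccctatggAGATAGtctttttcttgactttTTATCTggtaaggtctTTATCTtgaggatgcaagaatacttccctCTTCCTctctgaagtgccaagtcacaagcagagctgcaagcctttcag
In Gp1ba, the GATA letters start 104, 51 and 23 bases before the start site and the ETS letters 16 bases before it. In Gp5, GATA letters start 115, 93 and 77 bases before it and ETS letters 48 bases before it. GATA letters were in the windows of 5 of 8 members (Gp1ba, Gp1bb, Gp5, Gp6 and Clec1b) and in 26.5% of all windows, and both motifs were in 2 of 8 and in 7.78%. The RUNX letters TGTGGT, on either strand, were in the window of Gp9 alone, 1 of 8, and in 14.0% of all windows. A match of letters is not evidence of binding, and binding was not measured here.

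Gp9 encodes the small chain that the complex needs to reach the surface. Its levels were -5.73 and -2.70 in ACKR4-positive cells and 2.52 and 3.97 in ACKR4-negative cells. The ACKR4-positive arrays lay 3.03 apart, more than for any other member, and the probe was well above background on the second of them and on 50% of its spots on the first. The log2 fold change was -7.46 ± 1.14 (adjusted p = 0.0394), and the call was lost without ACKR4-negative replicate 1 (adjusted p = 0.0515) or replicate 2 (0.0771).

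Gp1bb encodes the β chain, linked to the α chain by a disulfide bond. It had levels of -4.11 and -3.32 in ACKR4-positive cells and -1.70 and 1.28 in ACKR4-negative cells. The groups did not overlap, and the ACKR4-negative arrays lay 2.98 apart, the widest spread of any member within that group. The difference of -3.51 ± 1.06 did not pass the test (adjusted p = 0.199). It passed with the sort as a block (adjusted p = 0.0130) and when ACKR4-negative replicate 1, the array with the dim spiked-in controls, was left out (-5.00, adjusted p = 0.0305). Without ACKR4-negative replicate 2 the difference was -2.01 (adjusted p = 0.218), and without ACKR4-positive replicate 1 or 2 the adjusted p was 0.420 and 0.271.

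The probe behind these Gp1bb values is shown because of its base composition: 80.0% of its 60 bases are G or C, against a median of 41.7% over all probes.
Gp1bb probe (mm9, chr16:18621107-18621166): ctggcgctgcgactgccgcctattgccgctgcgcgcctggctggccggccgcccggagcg
It lists both RefSeq transcripts of Gp1bb, and each of the other 2 Gp1bb probes lists 1 of them. The probe for 1 transcript gave -7.99 and -6.46 in ACKR4-positive cells against -3.14 and -0.66 in ACKR4-negative cells, a difference of -5.33 that was at least 13.7-fold (adjusted p = 0.0598 among single probes, 0.000668 with the block). The probe for the other transcript was well above background on ACKR4-negative replicate 2 only and was not tested: -7.92 and -7.26 in ACKR4-positive cells against -6.41 and -4.12 in ACKR4-negative cells. All 3 probes were lower in ACKR4-positive cells in both sorts, and whether the groups differ in the share of each transcript was not tested. Septin5, the nearest tested gene, whose probe lies 1.84 kb away, had levels of -3.87 and -3.42 in ACKR4-positive cells and -3.70 and -3.23 in ACKR4-negative cells (difference -0.17 ± 0.34, adjusted p = 0.891).

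The collagen receptor gene Gp6 had levels of -7.23 and -6.25 in ACKR4-positive cells and 0.09 and 1.17 in ACKR4-negative cells. Neither ACKR4-positive array was well above background, and the difference was alike in both sorts, -7.32 and -7.42. Gp6 was at least 78.9-fold lower (log2 fold change -7.37 ± 0.55, adjusted p = 0.0103). Under normexp background correction with an offset of 50, the fold changes of the 3 members near background were smaller, at -4.16 for Gp6, -4.24 for Gp5 and -4.90 for Itga2b, and all 3 calls held. The upstream window of Gp6 (RefSeq, GRCm38.p6, chr7:4397745-4397994, minus strand) holds 1 GATA match, in capitals, that starts 144 bases before the start site.
Gp6 upstream: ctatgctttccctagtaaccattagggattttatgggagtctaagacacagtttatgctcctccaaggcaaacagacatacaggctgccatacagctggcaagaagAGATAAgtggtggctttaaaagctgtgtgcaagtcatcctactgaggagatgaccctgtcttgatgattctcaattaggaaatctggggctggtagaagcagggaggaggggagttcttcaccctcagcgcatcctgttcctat
The receptor signals through the Fc receptor γ chain encoded by Fcer1g, which other blood cells also carry. Fcer1g had levels of 5.35 and 6.22 in ACKR4-positive cells and 6.43 and 7.04 in ACKR4-negative cells. These lay close together beside the Gp6 values, with a difference of -0.95 ± 0.44 that did not pass the test (adjusted p = 0.420; 0.0467 with the sort as a block).

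For Clec1b the levels were -3.66 and -3.22 in ACKR4-positive cells and 2.89 and 3.32 in ACKR4-negative cells, all well above background. The difference was -6.54 in each sort with no overlap of the groups, the SE of the log2 fold change was 0.33, and the adjusted p was 0.00685. Besides platelets, some myeloid cells and liver sinusoidal endothelium of the mouse are known to express Clec1b.

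Clec1b was read by 3 probes that lie apart along the gene, and 2 are shown because they differ in the transcripts they list. The probe with the highest mean over the 4 arrays, whose values stand above (mm9, chr6:129350113-129350172), lists 1 RefSeq transcript, and the second (chr6:129353604-129353663), which was the brighter of the pair on both ACKR4-negative arrays, lists 3.
Clec1b probe, 1 transcript: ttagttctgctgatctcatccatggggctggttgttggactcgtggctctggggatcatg
Clec1b probe, 3 transcripts: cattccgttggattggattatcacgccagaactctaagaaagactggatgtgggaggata
The second probe gave -5.75 and -3.36 in ACKR4-positive cells and 3.31 and 3.96 in ACKR4-negative cells, a difference of -8.19 (adjusted p = 0.0154 in the fit of single probes). The remaining probe, which also lists 3 transcripts, gave -6.74 and -5.08 in ACKR4-positive cells and 2.03 and 2.97 in ACKR4-negative cells (difference -8.41, at least 266-fold, adjusted p = 0.0104). All 3 separated the groups with no overlap, and the difference between probes was not tested. Single probes were called lower in 3.62% of 22183 tested.

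**Figure D2:**
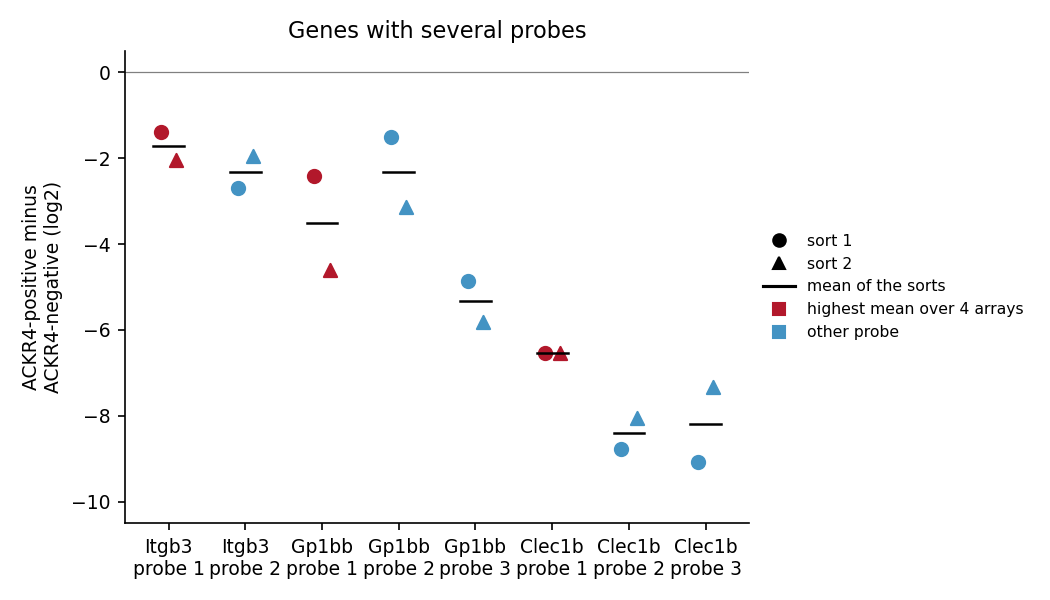
Difference between ACKR4-positive and ACKR4-negative levels (log2) for each probe of the 3 genes with more than 1 probe, with circles for sort 1, triangles for sort 2 and a line at their mean. The probe of each gene with the highest mean over the 4 arrays is in red, and all 8 probes lie below 0 in both sorts; Gp1bb probe 2 was not tested.

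Treml1 had levels of -5.80 and -2.98 in ACKR4-positive cells and 3.61 and 4.41 in ACKR4-negative cells. The 2 ACKR4-positive arrays lay 2.82 apart, and the first of them had 50% of its spots well above background, which is under the requirement. The log2 fold change was -8.41 ± 1.01 (adjusted p = 0.0220). Both ACKR4-negative values lay above both ACKR4-positive ones.

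The members also shared a direction between the arrays of 1 group. ACKR4-negative replicate 2 was higher than replicate 1 for 9 of 9 members, by 0.38 to 2.98 with a median of 0.93. Over all tested genes it was higher for 10382 of 17353, and this difference had a median of 0.13 and a 90th percentile of 0.86. ACKR4-positive replicate 2 was higher than replicate 1 for 8 of 9, the exception being Gp1ba at -0.30, and for 10666 of 17353 tested genes. The median was 0.47 for the members against 0.18 over all tested genes. Ackr4, at 2.76, and the platelet chemokine gene Pf4, at 2.70, also differed between the ACKR4-positive arrays. These shifts are within-group spread and enter the errors above. Despite them, each sort alone gave lower ACKR4-positive levels for 9 of 9 members, against 34.5% of tested genes that were lower in both, with a median difference of -7.13 in sort 1 and -6.67 in sort 2.

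**Figure D3:**
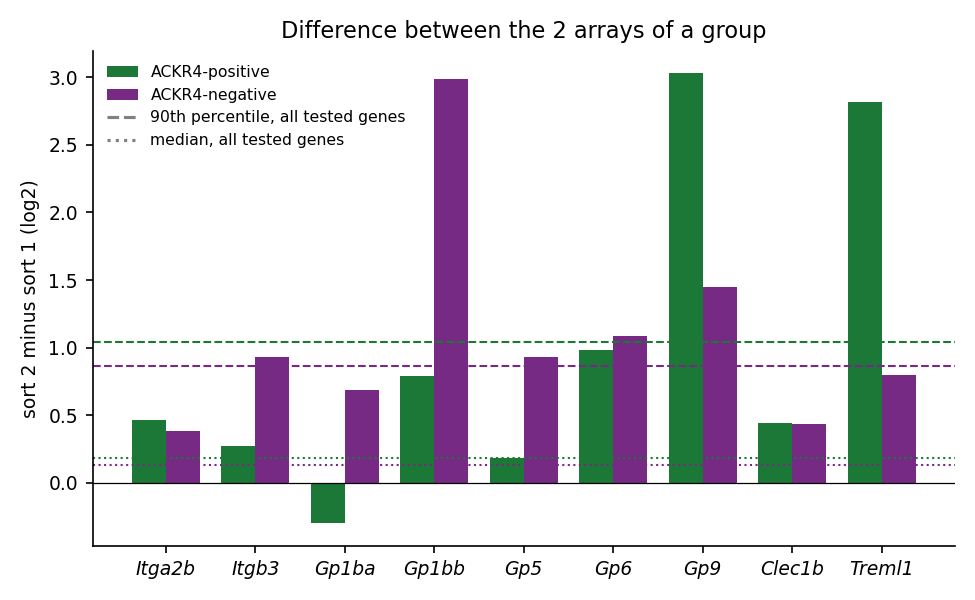
Level on the array of sort 2 minus that of sort 1 (log2) for each member, with ACKR4-positive arrays in green left of ACKR4-negative arrays in purple. Dashed and dotted lines give the 90th percentile and the median of the same difference over all tested genes in the colour of the group; Gp9 and Treml1 among ACKR4-positive arrays and Gp1bb among ACKR4-negative arrays reach 2.82 to 3.03.

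**Figure D4:**
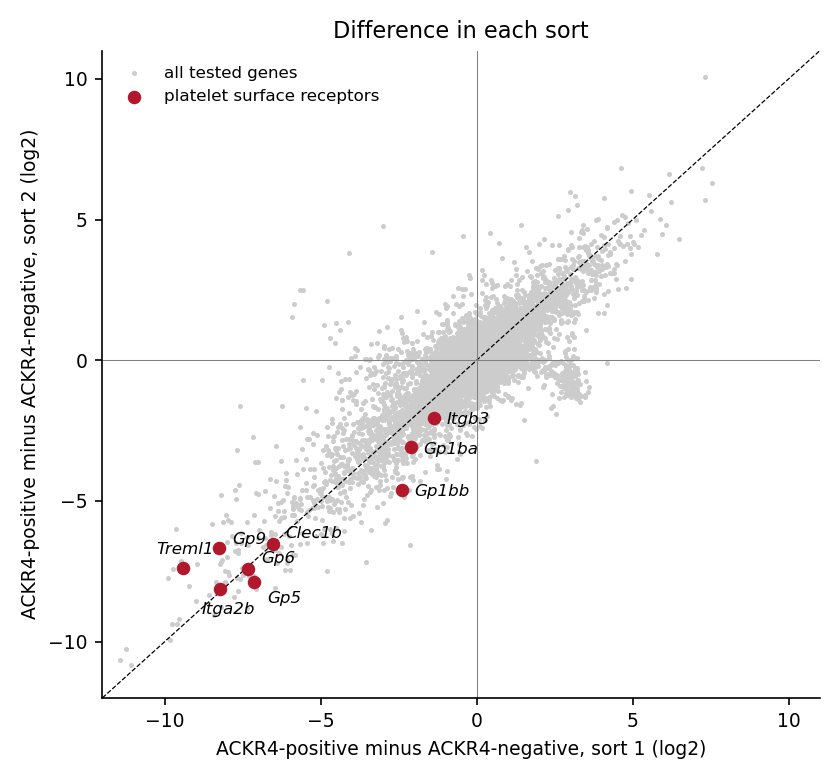
ACKR4-positive minus ACKR4-negative level in sort 1 (horizontal) against the same difference in sort 2 (vertical), in log2 units, with the members in red over all tested genes in grey and a dashed line of equality. All members lie below 0 on both axes, Itgb3 nearest to 0.

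Other receptors of the platelet surface were lower in part. Of 23 tested, 9 were called lower and 0 higher by limma (0 higher also at an unadjusted p under 0.05), with a median log2 fold change of -1.46 (-1.10 with dim genes at their bound). The block raised the lower count to 13. Cd84, a self-binding receptor of the SLAM family, had levels of -7.45 and -6.75 in ACKR4-positive cells, both not well above background, and -0.44 and -0.43 in ACKR4-negative cells (at least 37.7-fold lower, adjusted p = 0.00685). Mpig6b, an inhibitory receptor of megakaryocytes, was at least 38.3-fold lower, and the ADP receptor gene P2ry12 at least 14.3-fold lower. The ATP-gated channel gene P2rx1, at -4.03 ± 0.34, and P-selectin (Selp), which endothelial cells also make, at -3.36 ± 0.32, were above background in both groups. The call of Selp was lost without either ACKR4-negative array (adjusted p = 0.0562 and 0.0525). The prostacyclin receptor gene Ptgir was at least 8.30-fold lower, a call that was lost under normexp background correction (adjusted p = 0.0671).

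Of 31 tested genes that act in the signalling of these receptors or in integrin activation, 9 were called lower and 0 higher by limma (2, Vav3 and Prkcq, were higher at an unadjusted p under 0.05), with a median of -1.0; the block moved these counts to 16 and 2. Adaptors and kinases that act after Gp6 and Clec1b were among the lower ones. Lcp2, the adaptor SLP-76 downstream of Gp6 and Clec1b, had levels of -8.00 and -7.36 in ACKR4-positive cells and -0.49 and 0.04 in ACKR4-negative cells. Neither ACKR4-positive value was well above background, and the fall was at least 43.7-fold (adjusted p = 0.00685). The kinase Tec and the adaptor Lat were at least 18.6-fold and 18.2-fold lower. The adaptor gene Grap2 was at least 3.70-fold lower, a call lost under normexp (adjusted p = 0.340).

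Fermt3, the kindlin that activates platelet integrins, was well above background on 1 of the ACKR4-positive arrays. Its levels were -7.01 and -4.47 in ACKR4-positive cells and 1.47 and 1.36 in ACKR4-negative cells. The log2 fold change was -4.68 under normexp and -7.16 ± 0.88 in the main fit, which called it (adjusted p = 0.0237). This call was lost without ACKR4-negative replicate 1 (adjusted p = 0.0515). The regulator gene Ubash3b, at -3.20 ± 0.32, lost its call without ACKR4-positive replicate 1 (difference -3.03) or ACKR4-negative replicate 2 (-2.97). Syk, the kinase that both Gp6 and Clec1b recruit, had levels of -7.45 and -4.29 in ACKR4-positive cells and 0.30 and 0.31 in ACKR4-negative cells. Syk was well above background on 1 of the ACKR4-positive arrays. The groups did not overlap, and the difference of -6.18 ± 1.08 did not pass the test (adjusted p = 0.0536, and 0.00583 with the block). Under normexp the difference was smaller, at -3.67 (adjusted p = 0.0138).

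Genes for ligands were tested where their signal allowed it, 7 of 14, and 4 of the 7 were called lower and 0 higher by limma (1, the collagen gene Col3a1, was higher at an unadjusted p under 0.05, and it was called with the block). Von Willebrand factor (Vwf), which endothelial cells and platelets both make, had levels of -3.13 and -2.63 in ACKR4-positive cells and 3.33 and 4.14 in ACKR4-negative cells. All 4 values were well above background, with a log2 fold change of -6.61 ± 0.41 (adjusted p = 0.00776). Log2 fold changes were -5.96 ± 0.38 for thrombospondin 1 (Thbs1), -4.98 ± 0.59 for fibronectin (Fn1) and -2.84 ± 0.42 for the laminin chain gene Lama4. Fn1 was well above background on 1 of the ACKR4-positive arrays, and normexp gave -3.61. Fn1 lost its call without ACKR4-negative replicate 1 (adjusted p = 0.0540), and Lama4 without that array, ACKR4-positive replicate 1 or ACKR4-negative replicate 2 (0.126, 0.0971 and 0.0619). The fibrinogen chains Fga, Fgb and Fgg were not well above background on any array. Podoplanin (Pdpn), read by its brighter probe, was well above background on 1 array of each group, at -7.88 and -2.95 in ACKR4-positive cells and -7.31 and -2.37 in ACKR4-negative cells, and was not tested.

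Related integrin chains were lower in part. Of 8 tested, 3 were called lower (Itga8, Itgb5 and Itgb2) and 0 higher by limma, with 0 higher also at an unadjusted p under 0.05 and a median log2 fold change of -1.46. The block added Itga5 and Itgal, for 5 of 8 lower. Itgb2, the leukocyte β2 chain, was lower at -2.96 ± 0.44 and Itgb5, a partner of αv, at -2.08 ± 0.29. Neither call held when single arrays were left out, Itgb5 losing it without any of the 4 and Itgb2 without every array but ACKR4-positive replicate 2. Itga8 was at least 5.02-fold lower and lost its call under normexp (adjusted p = 0.197) and with a floor under dim levels (0.0584).

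Of 9 tested lectin and TREM genes related to Clec1b and Treml1 or lying beside them, 2 were called lower and 1 higher. The higher one was Clec4g, a lectin of sinusoidal endothelium, with levels of 7.43 and 8.57 in ACKR4-positive cells and 2.31 and 3.59 in ACKR4-negative cells (5.05 ± 0.63, adjusted p = 0.0238). The lower ones, Clec1a and Treml2, are also nearest tested genes beside members, by probe position. Clec1a, 27.4 kb from Clec1b, was lower at -2.13 ± 0.35 (adjusted p = 0.0467). Leaving out any 1 of the 4 arrays ended this call (adjusted p between 0.0965 and 0.220), as did median centring (0.0585) and testing without the filter on dim probes (0.0603). Treml2, 54.5 kb from Treml1, was at least 8.20-fold lower (adjusted p = 0.0115), a call lost under normexp (0.0712). Clec12b, on the other side of Clec1b, was not well above background on either ACKR4-positive array. Its ACKR4-positive level was at least 3.11-fold lower, a difference that did not pass the test (adjusted p = 0.104; 0.00414 with the block). Across the nearest tested gene on each side of every member, 18 in all, 2 were called lower and 0 higher by limma (0 higher also at an unadjusted p under 0.05), and their median log2 fold change was 0.03.

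**Figure D5:**
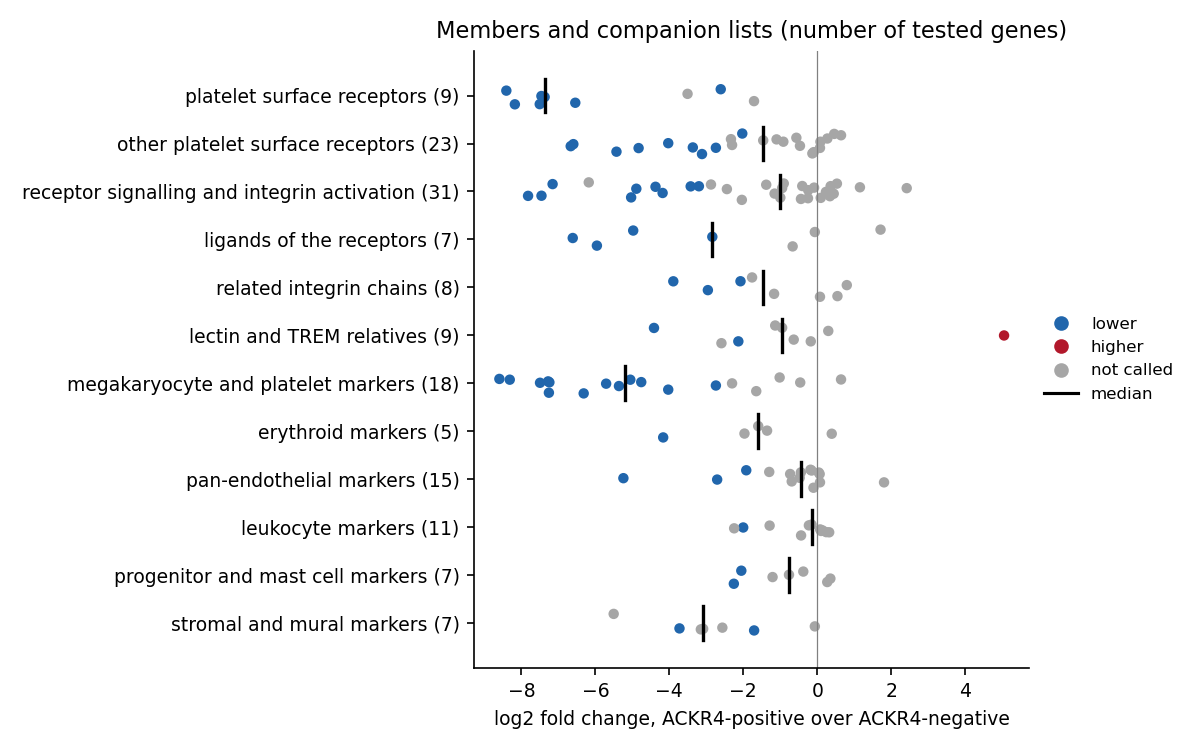
Log2 fold change of each tested gene, ACKR4-positive over ACKR4-negative, for the receptors and for each list, with the number of tested genes in brackets. Blue points were called lower, red higher and grey not called, and black bars give medians, -7.37 for the receptors, -5.21 for megakaryocyte and platelet markers and -0.44 for pan-endothelial markers.

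Markers of other cell types were read beside the receptors. Of 18 megakaryocyte and platelet markers, 4 of which are also among the other platelet receptors, 13 were called lower and 0 higher by limma, also at an unadjusted p under 0.05 (median log2 fold change -5.21, or -4.80 with dim genes at their bound). On the ACKR4-positive arrays 8 and 9 of the 18 were well above background, and on the ACKR4-negative arrays 18 and 18. The log2 of their summed levels was 6.22 and 6.60 in ACKR4-positive cells and 7.65 and 8.39 in ACKR4-negative cells. Most of the ACKR4-positive sum came from Srgn, a proteoglycan gene that many cells express, with levels of 6.18 and 6.55 in ACKR4-positive cells and 6.74 and 6.91 in ACKR4-negative cells (adjusted p = 0.592). Without Srgn the sum of the other 17 was 0.90 and 1.68 in ACKR4-positive cells and 6.55 and 7.75 in ACKR4-negative cells. Of the defining genes, Pf4 was well above background everywhere, at -2.94 and -0.24 in ACKR4-positive cells and 5.07 and 6.24 in ACKR4-negative cells (-7.24 ± 1.01, adjusted p = 0.0310), a call lost without ACKR4-negative replicate 2 (0.0628). The platelet tubulin gene Tubb1, the factor genes Gata1 and Gfi1b and the clotting factor gene F13a1 were not well above background on the ACKR4-positive arrays and were at least 54.5-fold, 81.2-fold, 21.7-fold and 59.3-fold lower. These markers moved with the members, and their part in the members' differences was not tested.

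The remaining lists had fewer calls. For 5 tested erythroid genes, 1 was called lower, the erythropoietin receptor gene Epor (-4.17 ± 0.27, adjusted p = 0.00870), and the log2 summed level was 4.13 and 5.92 in ACKR4-positive cells and 8.55 and 4.66 in ACKR4-negative cells. Epor was well above background on 1 of the ACKR4-positive arrays, and normexp gave a log2 fold change of -2.32. Most of each erythroid sum came from the α-globin gene Hba-a1. Its levels were 4.02 and 5.89 in ACKR4-positive cells and 8.53 and 4.57 in ACKR4-negative cells. The erythroid factor gene Klf1 was well above background on ACKR4-negative replicate 1 alone. Of 15 pan-endothelial markers, 3 were called lower: Emcn at -5.24 ± 0.87, Kdr at -2.71 ± 0.44 and Esam at -1.92 ± 0.27. The other 12 were not called, and the list median was -0.44. Log2 summed levels were 9.68 and 9.91 in ACKR4-positive cells and 10.2 on both ACKR4-negative arrays. The cadherin gene Cdh5 was at -0.69 ± 0.33 (adjusted p = 0.446). For leukocyte markers the count was 1 of 11 (Lck), with summed levels of 1.89 and 2.67 in ACKR4-positive cells and 2.49 and 3.05 in ACKR4-negative cells. Progenitor and mast cell markers gave 2 of 7 (Kit and Cd34), with 6.28 and 6.73 in ACKR4-positive cells and 7.36 and 7.65 in ACKR4-negative cells. Stromal and mural markers gave 2 of 7 (Myh11 and Cspg4), with -0.63 and 0.42 in ACKR4-positive cells and 3.38 and 5.47 in ACKR4-negative cells, a median log2 fold change of -3.09 (-2.32 with dim genes at their bound), and 6 of 7 genes lower in both sorts. Higher calls by limma numbered 0 in these lists; at an unadjusted p under 0.05, 1 pan-endothelial gene, Tek, was higher and 0 genes of the other 4 lists. With the block, Tek was called higher (1.81 on the log2 scale, adjusted p = 0.00610), and lower calls numbered 5 of 7 stromal and mural genes (adding Acta2, Pdgfrb and Cxcl13), 4 of 15 pan-endothelial, 2 of 11 leukocyte and 3 of 7 progenitor genes. Acta2, an actin gene of mural cells, had levels of -2.45 and 0.12 in ACKR4-positive cells and 3.26 and 5.42 in ACKR4-negative cells. Its adjusted p in limma was 0.0826, and 0.000494 with the block. Most of the stromal and mural sum in ACKR4-negative cells came from Acta2. Other processing ended some calls of these lists: Myh11 and Cspg4 under normexp (adjusted p = 0.236 and 0.112), and Emcn and Kdr under quantile normalization (0.0552 and 0.112). Lck lost its call without the filter on dim probes (0.0582). All 8 calls among the endothelial, leukocyte, progenitor and stromal genes were lost when at least 1 single array was left out, and the part of these cell types in the members' differences was not tested.

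The genes whose 4 levels, centred on their own mean, lay nearest to the mean profile of the members were Chac1, Mctp1, Ltbp1, Cyp2b10, Kbtbd11, Tlr12, Kcnj15, P2ry12, Slamf1 and Mall. Their root mean square distances over the 4 arrays ran between 0.216 and 0.344 log2 units. Among the members themselves this distance was lowest for Clec1b, at 0.43, and highest for Itgb3, at 2.12. This is a description over 4 arrays, which share the sorts and the slide.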

How the data were processed

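RNA of sorted mouse spleen cells was measured on 4 one-colour Agilent arrays. Per the labels, 6 to 20 ng of RNA was amplified and labelled. Per the file headers, the deposited processed intensity is background-subtracted and detrended within each array by Agilent Feature Extraction 10.7.3.1 (also named in the submitters' processing notes), with low values replaced by surrogates and no scaling between arrays. The deposited flags mark, by a 0 or 1 code, spots well above background and outlier spots. The authors' table of processed intensities, with a floor of 15, served as an alternative. Depth has no meaning here; 2 arrays per group limit the precision.

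Each probe's unflagged spots (4 per probe) were averaged as log2 processed signal, and the 75th percentile of the array was subtracted. Tests took in probes for which more than 50% of spots carried the well-above-background flag on each array of at least 1 group, and the tested probe with the highest mean over the 4 arrays stood for a gene. Groups were compared with limma 3.58.1 in R 4.3.3 (lmFit and eBayes, 2-sided), adjusted over 17353 genes at 0.05; figures used Python 3.11.15 and matplotlib 3.10.9. The method was tested on simulated data. P-values of the main fit measure the spread between the 2 pooled sorts within a group, moderated by limma over all tested genes. With the sort as a block, the spread shared by both arrays of a sort is removed. Those p-values rest on how far apart the differences of the 2 sorts lie, 1 comparison per gene, with the same moderation. Lower bounds of a fold are used only for probes with both arrays of the dimmer group near background. They hold for the main processing, and under normexp the fold changes of Itga2b, Gp5 and Gp6 fell below them.

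Replicate numbers pair the arrays: in the titles, 1 mouse number is common to the ACKR4-positive and ACKR4-negative array of a replicate, the design text names 2 sorts, and deviations from the group means correlated at r = 0.605 across genes. The block is therefore given beside main results whose call it changes.

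Probes were renamed through RefSeq (27502 by accession, 3549 by current symbol, 393 by synonym, 33 by another accession; 7952 kept the name in the file). Probe positions are those of the files (mm9), promoter windows are RefSeq's on GRCm38.p6, and 8 of 9 members had one; Itgb3 did not.

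Members, lists and alternatives were chosen with earlier results of these data known. Named genes are all members and their neighbours, up to 6 tested genes per list with the smallest p, a few fixed genes (Pecam1, Cdh5, Ptprc, Itgav, Vwf, Pf4, Ackr4) and the 10 genes nearest in profile. Syk, Fcer1g, Vav3, Prkcq, Srgn and the untested genes with values were chosen after their values were seen. Alternatives covered normalization, background correction, filters, probe summary, flagged spots, prior, floor, the authors' table, the block and each array left out; single-probe fits were added after seeing the data.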

Additional observations from a re-analysis of the deposited data

Results flagged for a closer look

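Among the genes named here, 3 of the 5 tested genes of the erythroid list moved in opposite directions in the 2 sorts, and this difference between sorts was not tested. Hba-a1, an α-globin gene, was at -4.51 (ACKR4-positive minus ACKR4-negative, log2) in sort 1 and at 1.31 in sort 2. Alas2, which encodes the erythroid enzyme of heme synthesis, was at -4.81 in sort 1 and at 2.10 in sort 2. Slc4a1, the anion exchanger of red cells, was at -4.53 in sort 1 and at 0.60 in sort 2. The 9 receptor genes were lower in ACKR4-positive cells in both sorts.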

How the results depend on the processing

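Of the 135 values of the members under alternatives, 126 kept direction and side of the threshold, 0 reversed, 6 lost the call (Gp1ba without each array, Gp9 without either ACKR4-negative array) and 3 gained it (Itgb3 and Gp1bb with the block, Gp1bb without ACKR4-negative replicate 1). Members called numbered 7 under each alternative except the block (9) and single arrays left out (5 to 6). With sort as a block, genes called numbered 2660, against 975 without it, and signalling genes called lower numbered 16. Leaving out 1 array, where the lone array is assumed to vary like the others, gave 386 to 891 called genes, 5 to 8 other platelet receptors, 4 to 13 signalling genes, 8 to 13 megakaryocyte and platelet markers and 1 neighbour. The lowest of these came without ACKR4-negative replicate 1 for called genes (386) and signalling (4, also without replicate 2), and without ACKR4-negative replicate 2 for receptors and markers. Neighbours called lower fell to 1 under median centring, normexp and no filter on dim probes (Clec1a lost under the first and last, Treml2 under normexp). Normexp moved log2 fold changes by over 1.5 times for dim members, to -4.90 for Itga2b, -4.24 for Gp5 and -4.16 for Gp6. The same held for 27 of the 46 named genes outside the members that were called, among them all 23 with a group near background, and 7 of these 27 lost the call; examples are Ackr4 (4.81), Cd84 (-3.18), Lcp2 (-3.64), Tubb1 (-3.74), Gata1 (-4.19) and P2ry12 (-2.05). Uncalled differences that changed sign without 1 array were those of Pecam1 (range -0.55 to 0.24), Septin5 (-0.41 to 0.060), Hba-a1 (-3.57 to 0.38), Alas2 (-4.14 to 1.42) and Slc4a1 (-4.28 to 0.35). The cause of these moves was not tested. A slide block was not run, since there was 1 slide and 1 scan.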
